A study of Mus musculus with 14 samples.

Results

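The insulin-like growth factor (IGF) system was followed through 8 genes picked by name, with earlier results of these data known. They were the ligand Igf1, the receptor Igf1r and the binding proteins Igfbp2, Igfbp3, Igfbp4, Igfbp5, Igfbp6 and Igfbp7. All 8 were matched by symbol among 55487 identifiers in the count tables. IGF-1 is a secreted peptide that signals through IGF1R, a receptor tyrosine kinase, to the PI3K-AKT and RAS-MAPK pathways. Binding proteins hold the ligand outside the cell and set how much of it can reach the receptor, and proteases and their inhibitors set how long a binding protein lasts. Stromal cells and macrophages of the bone marrow are known sources of IGF-1. IGFBP-7 binds the ligand more weakly than the other members of its family.

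RNA-seq was carried out on 14 libraries of mouse bone marrow in 6 groups, all of C57BL/6 background. BM MSC were mesenchymal stromal cells of wild-type marrow, grown for 21 days and then given PBS (2 libraries) or IL-1β at 5 ng/ml (2 libraries) for 72 h in the dish. LSK (Lin-Sca-1+c-Kit+, stem and early progenitor cells) and LK (Lin-c-Kit+, committed myeloid progenitors) were sorted from irradiated recipients of Mx1Cre; Jak2VF/+ marrow, in which Cre under the Mx1 promoter had switched on 1 mutant allele of Jak2. These mice received PBS (3 libraries of each population) or IL-1β (2 of each) by injection 3 times a week for 16 weeks. The mutant Jak2 allele was thus shared by the PBS and IL-1β arms of LSK and LK and was not in the MSC, so that genotype, culture and cell type cannot be told apart between MSC and the sorted cells. The MSC header named 1 further IL-1β library that was not analysed here. No label says that libraries of 1 group came from separate animals or cultures, so p-values measure only the spread between these libraries.

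Counted read pairs ranged from 4393233 to 30871055 per library, and every IL-1β library of LSK or LK was shallower than every PBS library of the same population. The biological coefficient of variation within a group was 0.189 in MSC under PBS, against 0.0624 in MSC under IL-1β and 0.393 in LSK under PBS. MSC PBS replicate 3 stood apart: it had 0 counts of Xist, the RNA of the inactive X, where the other MSC libraries had 47.2 to 69.0 CPM (read pairs of a gene scaled to the size of its library), although the Y-linked Ddx3y was at 43.0 to 80.4 CPM in all 4. In LSK and LK Ddx3y had 2 counts or fewer in every library, so that sex cannot be told apart from population either. Stromal markers differed unevenly between it and PBS replicate 2, with Cxcl12 at 70.0 against 305 CPM and Col3a1 at 180 against 511 CPM, but Pdgfra at 32.9 against 21.3 CPM and Vcam1 at 28.4 against 23.2 CPM. Saa3, an acute-phase gene used here to check the treatment, rose under IL-1β from 1.36 and 2.33 to 1603 and 1955 CPM in MSC, and from 0.154 to 0.286 to 14.4 and 19.5 CPM in LK (adjusted p = 0.00021 and 0.00026, edgeR). In LSK it was at 0.157 to 0.702 CPM under PBS and at 7.69 and 9.86 CPM under IL-1β, with an adjusted p of 0.057.

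The MSC cultures held stromal transcripts and, at a higher summed and median level, macrophage transcripts. The 15 stromal markers summed to 1693 and 3522 CPM under PBS and to 4165 and 4689 CPM under IL-1β. Their median was at 42.2 to 57.0 CPM and at 51.7 to 55.0 CPM. Of 15 stromal markers, 13 reached 1 CPM in every MSC library, while Lepr, the leptin receptor of marrow stroma, and Nt5e, which encodes CD73, were at 3 counts or fewer in both PBS libraries. All 18 macrophage markers reached 1 CPM in every MSC library, and their summed level was 23423 and 27224 CPM under PBS and 45282 and 46472 CPM under IL-1β. Much of that sum was Lyz2, at 7133 and 4803 CPM under PBS and at 19873 and 20803 CPM under IL-1β, whereas the median marker was at 697 to 772 CPM and at 755 to 838 CPM. Cd68, Tyrobp and Fcer1g had log2 fold changes of -0.47, -0.33 and -0.11 and were not called. Of these markers 7, among others Adgre1, Csf1r and Lyz2, were called higher under IL-1β and none lower. In bulk RNA, fewer cells of a type and less RNA per cell cannot be told apart, and the part of this shift in the values below was not tested.

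The promoters of 4 genes that the results turn on are shown from RefSeq (GRCm38.p6), each running from 250 bases before to 50 bases after the annotated start of transcription. Igfbp3 and Igfbp6 were called in opposite directions in MSC, Igf1r was called in LK, and Igfbp4 was abundant in all 3 populations. All 8 genes had an entry, and Igfbp2 had 2. Positions are counted from the RefSeq start, which is not always where the counted gene begins. The windows of Igfbp6 and Igf1r end at 102144235 and 67952306, before the counted genes begin (102144362 and 67952827). That of Igf1 begins at 87860861, inside its counted gene, which begins at 87858265. Capitals mark a match to TATAAA on either strand.
Igfbp3, chr11:7213874-7214173, minus strand: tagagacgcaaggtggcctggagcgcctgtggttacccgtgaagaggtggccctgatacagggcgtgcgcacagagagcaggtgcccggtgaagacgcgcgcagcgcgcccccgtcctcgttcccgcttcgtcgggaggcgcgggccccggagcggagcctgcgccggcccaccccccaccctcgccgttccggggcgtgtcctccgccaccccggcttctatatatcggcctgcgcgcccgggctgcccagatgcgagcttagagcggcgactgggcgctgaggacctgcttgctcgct
Igfbp6, chr15:102143936-102144235, plus strand: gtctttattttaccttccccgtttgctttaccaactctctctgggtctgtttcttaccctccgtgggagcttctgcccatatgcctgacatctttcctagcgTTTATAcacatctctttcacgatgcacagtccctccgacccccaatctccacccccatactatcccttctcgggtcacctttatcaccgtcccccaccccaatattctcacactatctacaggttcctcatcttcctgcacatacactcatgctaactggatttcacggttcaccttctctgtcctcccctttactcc
Igfbp4, chr11:99040994-99041293, plus strand: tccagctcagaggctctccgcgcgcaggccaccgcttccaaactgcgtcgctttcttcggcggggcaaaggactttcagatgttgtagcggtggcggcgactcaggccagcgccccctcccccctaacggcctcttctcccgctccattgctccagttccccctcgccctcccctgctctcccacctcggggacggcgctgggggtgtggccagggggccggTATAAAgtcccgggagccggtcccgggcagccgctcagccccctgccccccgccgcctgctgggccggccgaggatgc
Igf1r, chr7:67952007-67952306, plus strand: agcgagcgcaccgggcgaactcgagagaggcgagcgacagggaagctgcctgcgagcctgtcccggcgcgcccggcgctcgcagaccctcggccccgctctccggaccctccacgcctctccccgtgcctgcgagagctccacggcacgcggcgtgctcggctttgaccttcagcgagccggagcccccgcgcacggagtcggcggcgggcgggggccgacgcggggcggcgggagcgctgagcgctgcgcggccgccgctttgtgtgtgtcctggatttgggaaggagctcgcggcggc
TATAAA lay 28 bases before the start in Igfbp4 and, on the other strand, 148 bases before it in Igfbp6; 13.6% of 32851 promoters held these letters somewhere in the window. GGANNTTCC, the letters of an NF-κB-like site, and TTGCNNCAA, those of a C/EBP-like site, were in none of the promoters of the 8 genes, beside 4.26% and 2.08% of all promoters. TGANTCA, the letters of an AP-1-like site, was in the promoter of Igf1 (TGAATCA, 37 bases before the start) and in 1 of the 2 entries of Igfbp2 (TGAGTCA, 39 bases before the start), beside 7.81% of all promoters. No 2 of these motifs overlapped in a member. The Igf1r promoter was 76.0% G and C with 48 CpG pairs, more than 98.8% of all promoters, and that of Igfbp3 had 37 CpG pairs, whereas Igfbp6 had 8 and Igf1 had 6. Igfbp2 (chromosome 1, 72824503 to 72852474) and Igfbp5 (72857932 to 72874884) pointed towards each other with 5458 bases between them, and Igfbp3 (chromosome 11, 7206086 to 7213923) lay 3540 bases from Igfbp1, which had 0 counts in all 14 libraries. No member shared its strand with an overlapping gene, and the counting was strand-specific.

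The ligand came from the MSC cultures. Per kilobase of exon, on a scale set over all 14 libraries, Igf1 stood at 66.4 and 92.3 CPM in MSC under PBS and at 68.6 and 59.8 CPM under IL-1β. In LSK and LK it had 1 to 22 counts per library, which is 0.173 CPM per kb or less. Its level was higher in MSC than in LSK by 11.56 on the log2 scale (SE 0.58, adjusted p = 1.2e-09) and than in LK by 10.00 (SE 0.52, adjusted p = 1.4e-09, edgeR joint fit), differences that rest on those few counts in the sorted cells. Igf2, the other IGF ligand, had 0 counts in 13 libraries and 2 in the remaining one, and the insulin genes Ins1 and Ins2 had 0 in all 14.

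Igf1r ran the other way. It was at 2.30 and 3.36 CPM per kb in MSC under PBS, at 7.77 to 9.71 in LSK and at 5.50 to 6.79 in LK, and neither sorted population overlapped with MSC. The level in MSC was lower than in LSK by 1.60 on the log2 scale (SE 0.26, adjusted p = 0.0001) and lower than in LK by 1.12 (SE 0.25, adjusted p = 0.0014). Between LSK and LK the difference was 0.48 (SE 0.21, adjusted p = 0.098), and it was called, at 0.60 with an adjusted p of 0.020, when replicate numbers were blocked across the 2 populations. It was also called with DESeq2, with its size factors, with upper-quartile scaling and with no filter (0.57 to 0.61), which is 5 of 11 alternatives in all. The related receptor Igf2r, which takes up IGF-2 for breakdown, stood at 19.0 and 22.2 CPM per kb in MSC, at 0.443 to 1.69 in LSK and at 2.80 to 4.73 in LK.

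Across the 3 populations the binding proteins fell into those of MSC and one that all shared. In MSC under PBS, 6 members were called higher than in LSK and 2 lower, beside 31.2% and 27.2% of all genes, and 6 higher and 1 lower than in LK, beside 31.9% and 29.0%. These shares show how much of the transcriptome differed between cultured and sorted cells. Igfbp2, Igfbp3 and Igfbp6 had at most 1 count in any LSK or LK library under PBS. They entered the fit through their MSC counts and could only come out higher in MSC, so the tally is not a test of the members as a set.

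Igfbp7 was the most abundant of the 8 per kb in MSC, at 294 and 226 CPM per kb under PBS, and it stood at 1.59 to 2.40 in LSK and at 0.665 to 1.26 in LK, from 12 to 49 counts per library. It was higher in MSC than in LSK by 7.0 on the log2 scale (SE 0.25) and than in LK by 8.18 (SE 0.27), and higher in LSK than in LK by 1.19 (SE 0.27, adjusted p = 0.0037). With replicate numbers blocked the last difference was 1.32 with an adjusted p of 0.16, and was no longer called.

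Igfbp4, whose product inhibits IGF action until the protease PAPP-A cuts it, was expressed everywhere. It was at 93.1 and 75.4 CPM per kb in MSC, at 128, 211 and 135 in LSK and at 56.9, 53.5 and 101 in LK under PBS, so that MSC lay below every LSK library and within the range of LK. The level in MSC was lower than in LSK by 0.91 on the log2 scale (SE 0.28, adjusted p = 0.013), a call that was lost without MSC PBS replicate 3 (-0.77, adjusted p = 0.11). From LK it differed by 0.26 (95% interval -0.33 to 0.84, adjusted p = 0.44), and by 0.61 with an adjusted p of 0.041 without LK PBS replicate 3. In LSK it was higher than in LK by 1.17 (SE 0.25, adjusted p = 0.0026). LSK against LK thus gave 2 members higher and none lower, where 17.0% and 16.5% of all genes were called in each direction; with upper-quartile scaling 61.1% of the called genes were higher in LSK, against 50.8% with TMM.

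The remaining 4 binding proteins were transcripts of the cultures. Igfbp5 had 15.5 and 3.99 CPM per kb in MSC under PBS and 0.230 or less in LSK and LK, from 3 to 20 counts per library. Igfbp6 had 19.0 and 19.4 CPM per kb in MSC, at least 113-fold more than LSK and at least 108-fold more than LK, taking 3 counts per library as the limit in the sorted cells. For Igfbp2 these bounds were at least 19.1-fold and 18.2-fold, and for Igfbp3 at least 15.4-fold and 14.8-fold. Under PBS no LSK or LK library had more than 1 count of Igfbp2, Igfbp3 or Igfbp6.

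**Figure D1:**
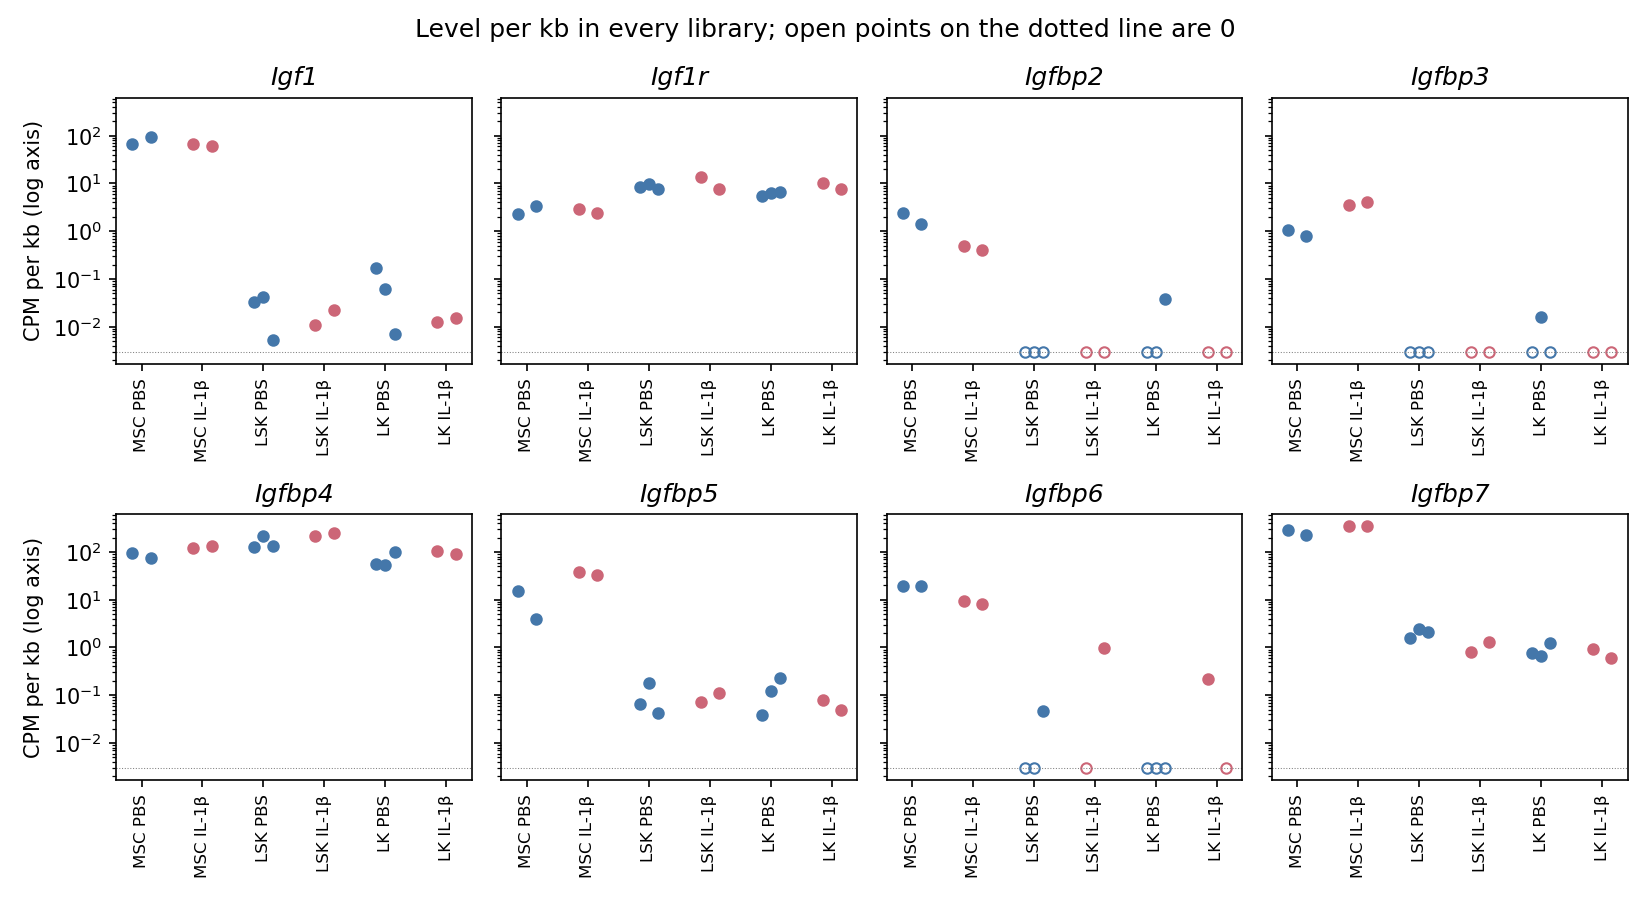
CPM per kb of exon length (log axis, TMM over 14 libraries) of the 8 genes in each library; blue points are PBS, red points IL-1β, and open points on the dotted line are 0. Igf1, Igfbp2, Igfbp3, Igfbp5, Igfbp6 and Igfbp7 are high in MSC and low or at 0 in LSK and LK, Igfbp4 is at 53.5 CPM per kb or more in every library, and Igf1r is lowest in MSC.

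As shares of the summed per-kb level of the 6 binding proteins, Igfbp7 made up 69.1% in both MSC libraries under PBS and Igfbp4 21.9% and 23.1%. In LSK and LK, Igfbp4 made up between 98.4% and 99.6% of the sum in all 10 libraries. Under IL-1β the Igfbp5 share in MSC was 6.30% and 7.53%, against 1.22% and 3.65% under PBS, and the Igfbp6 share was 1.58% and 1.85%, against 4.47% and 5.93%. The sum itself was 327 and 425 CPM per kb in MSC under PBS and 517 and 524 under IL-1β.

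**Figure D2:**
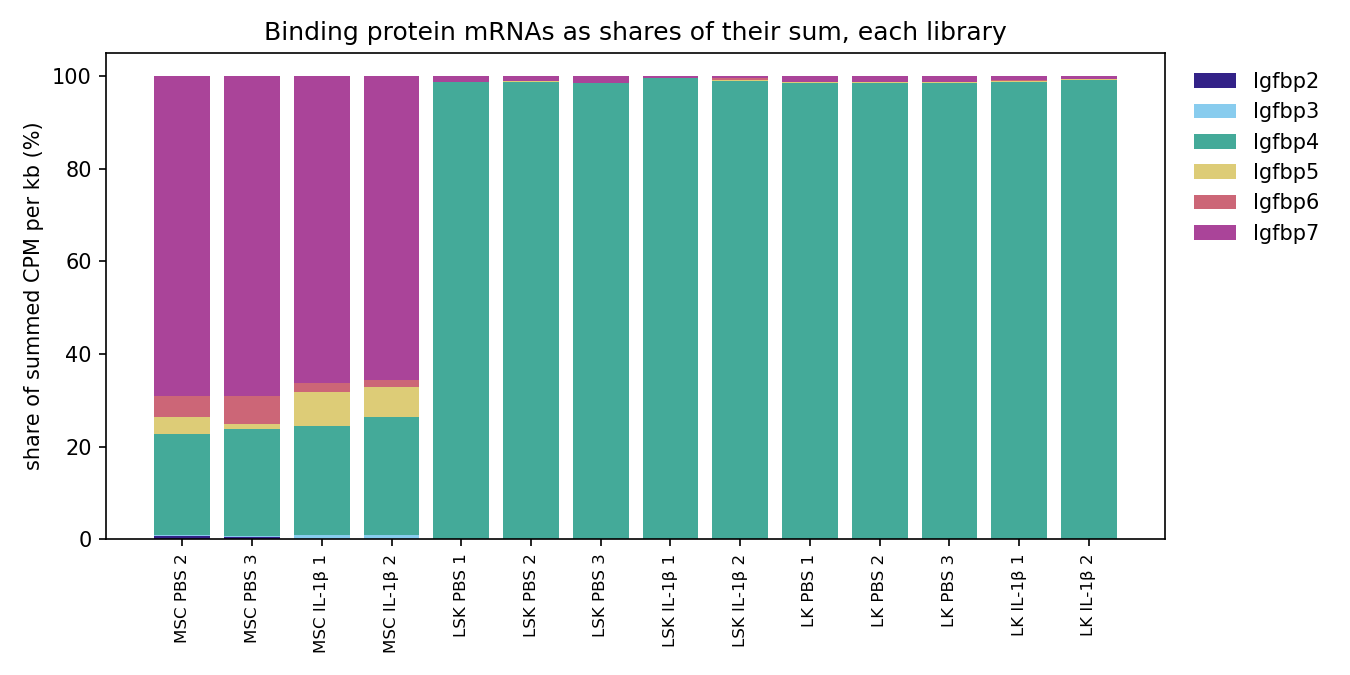
Share of each of the 6 binding protein mRNAs in their summed CPM per kb (%, stacked to 100) in each library. Igfbp7 fills between 65.7% and 69.1% of the bar in the 4 MSC libraries, and Igfbp4 at least 98.4% in the 10 LSK and LK libraries.

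In order of per-kb level, the MSC under PBS ran Igfbp7, Igfbp4, Igf1, Igfbp6, Igfbp5, Igf1r, Igfbp2 and Igfbp3, where Igfbp4 and Igf1 overlapped between libraries, as did Igf1r and Igfbp2. Under IL-1β the order was Igfbp7, Igfbp4, Igf1, Igfbp5, Igfbp6, Igfbp3, Igf1r and Igfbp2, with no overlap between neighbours. In LSK and LK, Igfbp4, Igf1r and Igfbp7 led in that order under both treatments, with no overlap between these 3.

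The comparison of IL-1β with PBS in MSC asked how the cytokine alters gene expression in these cultures, macrophage transcripts included. Igfbp3 rose and Igfbp6 fell, and no other member was called (a gene was called when its log2 fold change lay beyond 0.5 in either direction and its Benjamini-Hochberg adjusted p from edgeR fell below 0.05). That is 1 of 8 members higher and 1 lower, beside 7.14% and 4.31% of the 13239 genes tested. Of all the called genes, 62.4% were higher with TMM scaling and 49.6% with upper-quartile scaling. In 7 of the 8 members the PBS and IL-1β libraries did not overlap, as in 61.2% of all genes.

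Igfbp3, the main carrier of IGF-1 in serum, was at 2.83 and 2.03 CPM (17 and 27 counts) under PBS and at 8.82 and 10.6 CPM (269 and 120 counts) under IL-1β. The treated cultures were the high ones, without overlap, with a log2 fold change of 2.03 (SE 0.28, adjusted p = 0.012). Igfbp6, which prefers IGF-2, was at 17.8 CPM in each PBS library and at 8.43 and 7.68 CPM under IL-1β, and fell by 1.14 on the log2 scale (SE 0.16, adjusted p = 0.014). Neither call held when 1 IL-1β library was left out (Igfbp3: adjusted p = 0.20 and 0.21; Igfbp6: 0.24 and 0.23) or in a fit of all 14 libraries (0.23 and 0.65), with fold changes close to these in each case. With 1 PBS library left out both were called, but there the spread came from the pair of IL-1β libraries alone and the lone PBS library was assumed to vary like them.

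Igfbp5, the most conserved of the family and a protein bound to bone matrix, was at 78.7 and 19.7 CPM under PBS and at 186 and 166 CPM under IL-1β. Its log2 fold change was 1.89 (SE 0.67, 95% interval 0.05 to 3.73, adjusted p = 0.16). Its level in PBS replicate 2 was 3.99 times that in replicate 3, where Cxcl12 differed 4.36 times, Postn 3.19 times and Col3a1 2.84 times in the same direction, while Thy1 and Kitl were at 1.12 and 1.13 times and Pdgfra and Vcam1 at 0.648 and 0.816 times; their part in this spread was not tested. Without replicate 3 the log2 fold change was 1.17, and without replicate 2 it was 3.17, and it was called in both fits, in which the spread came from the pair of IL-1β libraries alone.

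Igfbp2 was at 3.83 and 2.18 CPM (23 and 29 counts) under PBS and at 0.721 and 0.618 CPM (22 and 7 counts) under IL-1β, with a log2 fold change of -2.09 (SE 0.50) and an adjusted p of 0.050 that just missed the threshold. It was called lower in 7 of 12 alternatives, among them DESeq2, both other scalings, no filter and limma-voom, and not in the fit of all 14 libraries or with 1 IL-1β library left out. Igfbp4 was at 348 and 275 CPM against 427 and 495 CPM, a log2 fold change of 0.57 (SE 0.16, adjusted p = 0.070). Igfbp7 was at 300.1 and 225 CPM against 329 and 348 CPM (0.37, SE 0.16, adjusted p = 0.19). These 3 genes did not overlap between treatments and did not pass the threshold.

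Igf1 was at 556 and 753 CPM under PBS and at 539 and 495 CPM under IL-1β. The groups did not overlap, and the log2 fold change was -0.34 (95% interval -0.76 to 0.07, adjusted p = 0.24). Igf1r was at 32.7 and 46.5 CPM under PBS and at 39.0 and 33.4 CPM under IL-1β, so the groups overlapped (-0.14, 95% interval -0.61 to 0.33, adjusted p = 0.68). Neither the ligand nor the receptor thus showed a called difference in MSC.

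**Figure D3:**
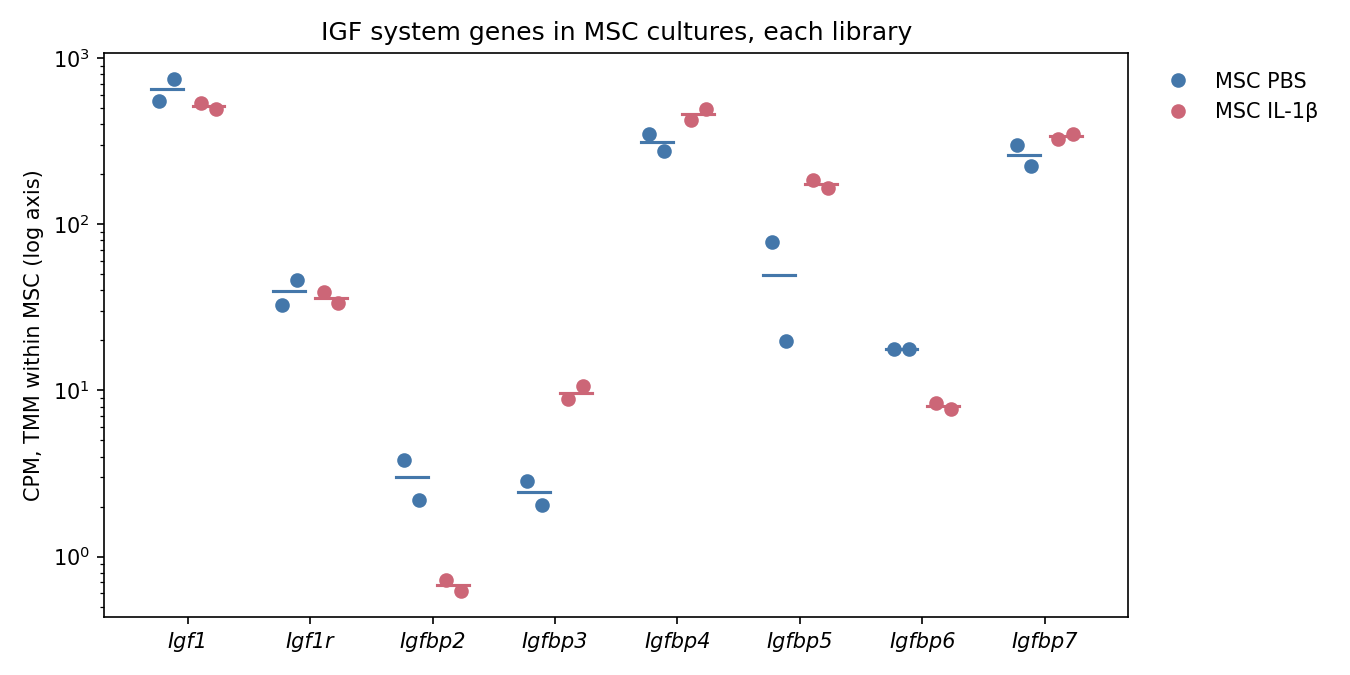
CPM (log axis, TMM within MSC) of the 8 genes in the 2 PBS (blue) and 2 IL-1β (red) libraries of MSC; points are libraries and short lines are group means. Igfbp3 lies higher and Igfbp6 lower under IL-1β, and the PBS libraries of Igfbp5 are spread from 19.7 to 78.7 CPM.

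In LSK, IL-1β against PBS gave no called member among the 3 that could be tested (Igf1r, Igfbp4 and Igfbp7), none at an unadjusted p under 0.05 in edgeR, and none called but 1 at that unadjusted limit in DESeq2. Calls made up 0.632% of 13132 genes. Igfbp4 was at 626, 1033 and 679 CPM under PBS and at 1074 and 1243 CPM under IL-1β, with no overlap but a log2 fold change of 0.57 (95% interval -0.08 to 1.23, adjusted p = 0.32). Igf1r was at 155, 181 and 148 CPM under PBS and at 258 and 147 CPM under IL-1β (0.33, 95% interval -0.30 to 0.96, adjusted p = 0.55). Igfbp7 had 29 to 49 counts under PBS and 9 and 7 under IL-1β, at 2.12 to 3.21 and 1.1 and 1.74 CPM. The Igfbp7 groups did not overlap, its log2 fold change was -0.97 (SE 0.87, adjusted p = 0.58), and non-overlap was seen in 39.6% of all genes here.

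In LK, Igf1r rose under IL-1β. It was at 94.2, 107 and 118 CPM under PBS and at 190.0 and 141 CPM under IL-1β, with no overlap and a log2 fold change of 0.64 (SE 0.15, adjusted p = 0.033). It was the 1 member called of 4 tested, where 6.77% of 12835 genes were called higher and 2.57% lower and 45.7% did not overlap. The call was lost without IL-1β replicate 1 (0.40, adjusted p = 0.34), without PBS replicate 1 or 2 (adjusted p = 0.099 and 0.11) and in the fit of all 14 libraries (0.56, adjusted p = 0.27). Igfbp4 was at 256, 242 and 464 CPM under PBS and at 491 and 428 CPM under IL-1β, so PBS replicate 3 lay among the IL-1β values (0.52, SE 0.30, adjusted p = 0.35); without that library the log2 fold change was 0.89 with an adjusted p of 3.5e-05. Igfbp5 (2 to 20 counts) and Igfbp7 (5 to 22 counts) were not called, with log2 fold changes of -0.91 (95% interval -3.09 to 1.27) and -0.14 (95% interval -1.61 to 1.32).

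Lineage transcripts of the sorted gates also differed with treatment. In LK, the erythroid genes Gata1, Klf1 and Epor were called lower under IL-1β and the granulocytic genes Mpo and Elane higher. In LSK, Mpo and Elane were called higher as well, and Flt3 was called lower in both populations. The part of these differences in the Igf1r and Igfbp4 values was not tested.

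**Figure D4:**
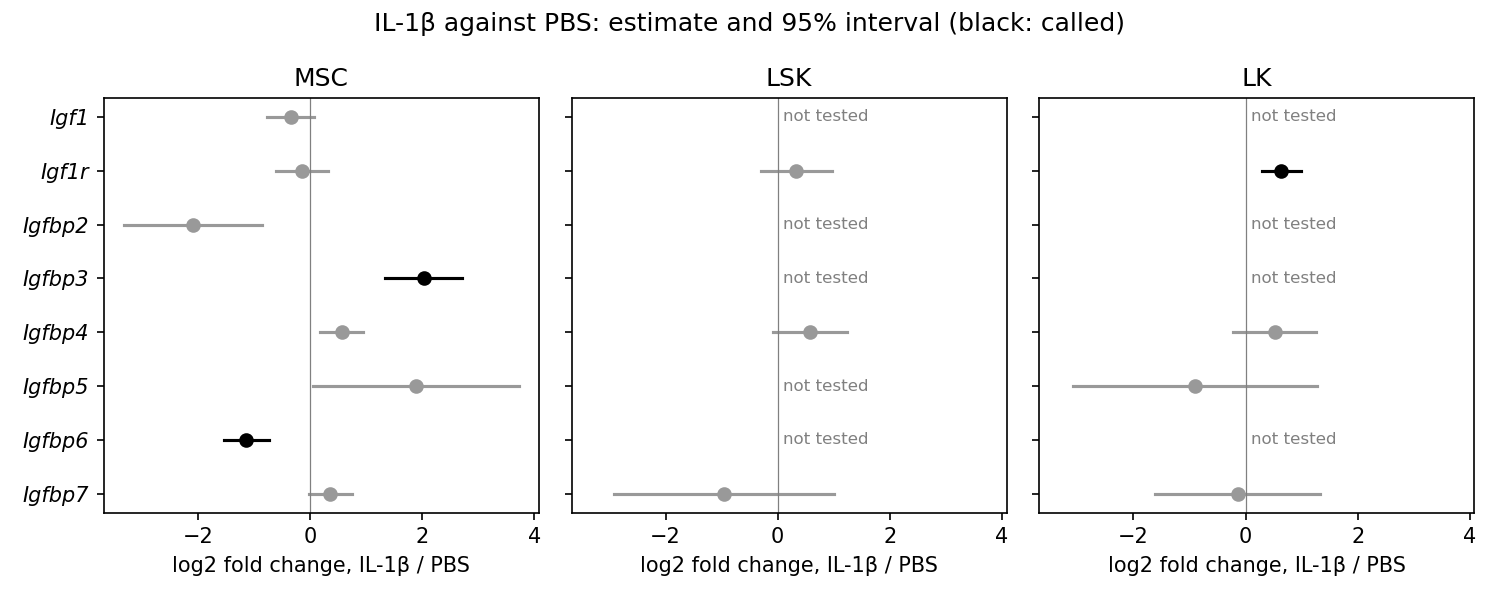
Log2 fold change of IL-1β over PBS with its 95% interval for the 8 genes in MSC, LSK and LK (edgeR, fit within each population); black marks called genes, grey those not called. Igfbp3 and Igfbp6 in MSC and Igf1r in LK are called, and members with too few counts are written as not tested.

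Whether a response differed between populations was tested in the fit of all 14 libraries. No member was called for MSC against LSK, MSC against LK or LSK against LK, beside 9.27%, 2.04% and 0.188% of 15393 genes; 2, 2 and 0 members had an unadjusted p under 0.05, and DESeq2 called 2 (1 in each direction), 0 and 0. Igfbp2 and Igfbp3 had 0 counts in every LSK library, so the comparisons with LSK could not decide on them (SE 4983 and 2473 for MSC against LSK). The Igf1r response in MSC was lower than in LK by 0.66 on the log2 scale (95% interval -1.43 to 0.11, adjusted p = 0.50). The Igfbp4 response differed by 0.03 between MSC and LSK (95% interval -0.84 to 0.91) and by 0.16 between MSC and LK (95% interval -0.72 to 1.04). The Igfbp7 response in MSC exceeded that in LSK by 1.44 (SE 0.43, 95% interval 0.52 to 2.35), with an adjusted p of 0.051, and was called in 4 of 13 alternatives. The comparisons share libraries, and MSC were treated in the dish but LSK and LK in the animal. Of all genes called for MSC against LSK, 57.9% had the higher response in MSC with TMM and 44.5% with upper-quartile scaling; for MSC against LK these were 60.8% and 45.5%.

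Of 72 other genes of the pathway, 61 could be tested in MSC, of which 5 were called higher under IL-1β, none lower and 56 not called, where 7.14% and 4.31% of all genes were called higher and lower. Their median log2 fold change was 0.11, beside 0.0044 over all genes. Socs3 and Cish, feedback inhibitors of cytokine and growth hormone receptors, were called together with Jak2, the kinase of the growth hormone receptor. These were 3 of 8 listed genes of the growth hormone axis, and the other 5 were not called. The log2 fold changes of the 8 ran from -0.87 to 3.04, with a median of 0.39, so the axis did not move as a whole. Socs3 was at 15.7 and 18.3 CPM under PBS and at 139 CPM in both IL-1β libraries (log2 fold change 3.04, SE 0.12, adjusted p = 0.00058). Cish was at 0.753 and 2.67 CPM against 8.56 and 9.27 CPM (2.57, SE 0.52, adjusted p = 0.034), and Jak2 was at 23.7 and 32.5 CPM against 57.3 and 58.6 CPM (1.06, SE 0.17, adjusted p = 0.018).

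Stc1, which encodes stanniocalcin-1, an inhibitor of the IGFBP protease PAPP-A, was at 0.602 and 0.834 CPM (8 and 5 counts) under PBS and at 4.77 and 6.72 CPM (54 and 205 counts) under IL-1β, a log2 fold change of 3.06 (SE 0.40, adjusted p = 0.011). It had 0 counts in all LSK and LK libraries. All 5 calls were lost when either IL-1β library was left out except that of Socs3, which held. None of the 5 tested CCN genes, 5 other genes with an IGFBP domain, 2 other receptors or 2 IGF2 mRNA-binding proteins was called; 17 of the 61 tested pathway genes had an unadjusted p under 0.05, as did 3968 of all 13239 genes.

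In LSK none of 46 tested pathway genes was called (10 at an unadjusted p under 0.05), where 0.632% of 13132 genes were called and 2431 had such a p. In LK Map2k1, the MAPK kinase MEK1, was the 1 call of 46, where 6.77% of all genes were called higher and 2.57% lower. Map2k1 was at 40.3 to 49.4 CPM under PBS and at 64.3 and 65.6 CPM under IL-1β in LK (0.51, SE 0.13, adjusted p = 0.040), a call lost when any 1 library but PBS replicate 3 was left out. Median log2 fold changes over the tested pathway genes were -0.29 in LSK and 0.01 in LK, beside -0.06 and -0.03 over all genes.

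As a description, the genes most like each member over the 14 libraries were those with the highest Pearson r of log2 CPM among 15393 genes; since 4 of the libraries are MSC and 10 are sorted cells, r mostly follows that split. For Igf1 they were Gpnmb (r = 0.996), Creg2 and Lgals3, for Igfbp7 Efemp1 (r = 0.995), Gpr153 and Psap, and for Igfbp5 Mag (r = 0.992), Pigz and Clec4a1. For Igfbp3 they were C1qtnf2 (r = 0.999), Ptgfr and Ms4a4a, for Igfbp6 Selenok (r = 0.992), Rcan2 and Trappc2, and for Igfbp2 Hspb7 (r = 0.997), Gm15156 and Tmem200a. For Igf1r they were Dock9 (r = 0.973), Ddx19b and Miga1, and for Igfbp4, which did not follow the split, Psmb8 (r = 0.929), Ccdc88b and Tha1.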

How the data were processed

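RNA-seq libraries were made after depletion of ribosomal RNA. The authors deposited read-pair counts per gene for each population, per the file headers from featureCounts 2.0.2 counting read pairs on the reverse strand against GRCm38 with Ensembl annotation 100. The submitters' processing notes also name fastp 0.20.0, HISAT2 2.0.1 and SAMtools 1.10. The files hold raw counts, with total depth as given in the report, and count noise limits the low genes. Symbols were matched to 55141 of 55487 identifiers.

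Counts were tested with edgeR 4.0.16 in R 4.3.3 (filterByExpr, TMM, quasi-likelihood, Benjamini-Hochberg over all genes tested). Treatment was fitted within each population, and differences between populations and between responses in all 14 libraries with 1 factor of 6 groups. CPM were computed from the counts after TMM within a population, and CPM per kb after TMM over all libraries, with the deposited exon lengths. A fold against a group at 3 counts or fewer per library is a bound against 3 counts in each. Alternatives were DESeq2 1.42.0, limma 3.58.1 (voom), other scalings and filters, a replicate block and each library left out. Counts were simulated with 200 genes changed by a log2 fold change of 2. The MSC fit recovered 84.5% of the 193 that were tested, with 16 false calls among 13239 genes. The LSK and LK fits recovered 62.5% and 85.1%, and the joint fit 65.8% for MSC against LSK under PBS. Each simulated gene had the same spread in all groups, unlike MSC (0.189 under PBS, 0.0624 under IL-1β). The simulation thus does not describe groups of unequal spread or smaller changes.

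Deviations from the group mean correlated at 0.19, 0.12 and 0.45 between same-numbered LSK and LK libraries under PBS. Between same-numbered PBS and IL-1β libraries of a population the correlations were -0.091 to 0.12. The ranges meet and differently numbered libraries were not compared, so these values cannot decide whether LSK and LK libraries of 1 number are paired, which the blocked fits assume. The members and gene lists were chosen with earlier results of these data known. Named genes were the 8 members, the list genes called in a treatment comparison, the 3 genes most like each member, and Il1r1 and Saa3 as treatment checks; 1 called pathway gene and 1 called marker are counted but not reported here by name. Promoters came from RefSeq; no protein sequences were used here. The labels give the injected IL-1β dose in a unit that differs from the study's methods, so no dose is stated.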

Additional observations from a re-analysis of the deposited data

Results flagged for a closer look

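Cish and Jak2 were called for a different response to IL-1β in MSC and in LSK, in the fit of all 14 libraries (edgeR). Calls made up 9.27% of 15393 genes in this test. The response of Cish was higher in MSC by 3.92 on the log2 scale (SE 0.83, adjusted p = 0.013), and that of Jak2 by 1.53 (SE 0.28, adjusted p = 0.0060). Cish was higher in both IL-1β libraries of MSC than in both PBS libraries, and lower in both IL-1β libraries of LSK than in all 3 PBS libraries. Libraries did not overlap in 61.2% of all genes in MSC and in 39.6% in LSK. Cish had 10 and 16 counts in MSC under PBS and 15 and 34 in LSK under IL-1β. Within MSC, the treatment calls of Cish and Jak2 did not hold with either IL-1β library left out. Against LK the response of Jak2 was higher in MSC by 1.14 (SE 0.27, adjusted p = 0.049), where 2.04% of all genes were called. The MSC carried no mutant Jak2 allele and the sorted cells did, and the treatments differed in route and length, so genotype, route and cell type cannot be told apart here. No member of the IGF system was called by this test, which could not decide on Igfbp2 and Igfbp3 in the comparisons with LSK.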

How the results depend on the processing

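In MSC the count of members called higher was 1 and became 2 with DESeq2, no filter or limma-voom and 0 in the joint fit; the count called lower was 1 and became 2 with DESeq2, DESeq2 size factors, upper-quartile factors, no filter or limma-voom and 0 in the joint fit. Leaving out 1 library gave 0 to 4 higher and 0 to 3 lower. In LK the 1 member higher became 0 in the joint fit, and 0 to 2 with 1 library left out. With a replicate block, LK had 2 higher (Igfbp4 at 0.88, adjusted p = 6.99e-05, beside Igf1r), though the numbers pair no animals across treatments. Number 3 occurs only under PBS, so this block takes PBS replicate 3 out of the treatment estimate. It is thus close to the fit without LK PBS replicate 3 and not a separate alternative. With the block LSK had 0, and LSK against LK 2, with the changed calls of Igfbp7 and Igf1r given above. No paired analysis was possible in MSC because its groups share only 1 number. Without 1 library, MSC against LSK had 1 to 2 lower and LSK against LK 0 to 1 lower; DESeq2 and no filter gave 1 lower in the latter. For MSC minus LSK responses, DESeq2 gave 1 higher and 1 lower, no filter 2 higher and 1 lower, and single libraries left out 0 to 1 in each direction; for MSC minus LK, no filter gave 1 higher and single libraries 0 to 1. The cause of these changes was not tested.

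Directions turned for the following values, none of them called in the reported fits. With 1 library left out, the log2 fold change of Igf1r in MSC ran from -0.33 to 0.17 (above 0 without PBS replicate 3), that of Igf1r in LSK from -0.13 (without IL-1β replicate 1) to 0.70, that of Igfbp7 in LK from -0.48 to 0.11 (without IL-1β replicate 2), and that of Igfbp5 between LSK and LK from -1.30 to 0.023 (without LK PBS replicate 3). Igfbp7 in LK was at 0.16 with the replicate block. The difference in Igfbp4 response between MSC and LSK was at -0.045 with DESeq2, -0.045 with its size factors and -0.10 with upper-quartile factors, and ran from -0.24 to 0.20 with 1 library left out, as the Igfbp4 difference did from -0.20 to 0.33 for MSC minus LK and from -0.23 to 0.39 for LSK minus LK. The last was at -0.015 with the replicate block. For Igf1r the differences ran from -0.77 to 0.11 (MSC minus LSK) and from -0.84 to 0.12 (LSK minus LK). Igfbp6 for MSC minus LSK, with 5 counts or fewer in every LSK library, ran from -6.47 to 0.54 (the latter without LSK IL-1β replicate 2) and was called in 3 of 13 alternatives (DESeq2, no filter, and without LSK IL-1β replicate 1).

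Over all alternatives the share of all genes called ran from 0.276% to 27.3% in MSC, 0.0211% to 12.9% in LSK and 0.492% to 19.7% in LK; for LSK minus LK responses it ran from 0.0120% to 7.76%. Relative to TMM, DESeq2 size factors shifted the median log2 fold change of the listed genes by 0.15 for MSC against LK. Depth limits Igfbp2, Igfbp3, Igfbp5, Igfbp6 and Igf1 in LSK and LK, and 2 libraries a group limit every treatment test in MSC.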

Other observations

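Il1r1, the IL-1 receptor gene, was at 5.00 and 7.68 CPM in MSC under PBS and at 10.6 and 7.94 CPM under IL-1β (log2 fold change 0.52, SE 0.28, adjusted p = 0.28). In LSK it was at 65.7, 48.3 and 58.6 CPM under PBS and at 33.1 and 16.6 CPM under IL-1β, with no overlap and a log2 fold change of -1.20 (SE 0.34, adjusted p = 0.13). In LK it was at 4.37 to 7.23 CPM under PBS and at 9.67 and 7.86 CPM under IL-1β (0.67, SE 0.31, adjusted p = 0.23).

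Igfbp6 had 5 counts in 1 LSK library under IL-1β and 2 counts in 1 LK library under IL-1β, where no PBS library of either population had more than 1. Igfals, which carries IGFs with Igfbp3 or Igfbp5 in serum, had 4 and 8 counts (0.353 and 0.262 CPM) in the IL-1β libraries of MSC. The PBS libraries had 0 and 1 (at most 0.0753 CPM), and the 8 counts came from the deepest of the 14 libraries. Insrr, a receptor related to that of insulin, had 10 to 32 counts (0.783 to 2.19 CPM) in LSK under PBS and 0 to 3 (at most 0.365 CPM) in the shallower IL-1β libraries, with an adjusted p of 0.31, and was not called. Igfals and Insrr were picked after their values were seen.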
